A study of Mus musculus with 8 samples.

Results

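Trp53, the gene of the tumor suppressor p53, was compared between sham and BCAS mice together with 9 genes that limit p53 or that p53 and other stress signals use to hold the cell cycle. The 10 genes were chosen by name, as Trp53, Mdm2, Ccng1, Cdkn1a, Cdkn1b, Cdkn1c, Cdkn2c, Gadd45a, Gadd45b and Gadd45g, out of 54752 genes in the count tables. All 10 had enough counts to be among the 17136 tested genes, and the lowest count of any of them in any library was 34, for Cdkn2c in sham mouse 3. All samples were pieces of right cerebral cortex from wild-type adult male C57BL/6 mice (C57BL/6 J in the methods), collected 3 weeks after the operation in 4 animals of each group. BCAS stands for bilateral carotid artery stenosis, in which microcoils narrow both common carotid arteries so that less blood reaches the brain, and here the narrower coil was on the right. Sham mice had the surgery without coils. Each library came from 1 mouse, so a group is a set of 4 separate animals, and the tissue was used whole, with its neurons, glia, vessels and any lesion.

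p53 is a transcription factor that cells keep at a low level, because MDM2 marks it for destruction. Damage to DNA, lack of oxygen and other stresses free p53 from MDM2, and it then switches on genes that stop the cell cycle, repair DNA or start cell death. The gene of MDM2 is itself such a target, which closes a feedback loop. p53 is controlled mainly at the level of its protein, and RNA counts do not measure that. The cell cycle is driven by cyclin-dependent kinases (CDKs), and 2 families of small proteins block them. The CIP/KIP family (p21, p27 and p57, from Cdkn1a, Cdkn1b and Cdkn1c) binds complexes of cyclins and CDKs, whereas the INK4 family, to which p18 from Cdkn2c belongs, binds CDK4 and CDK6. The GADD45 proteins are stress sensors that bind CDK1 and a kinase upstream of p38 and JNK. In the adult cortex most neurons have left the cell cycle for good, while glia and vessel cells can enter it again after injury.

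The DNA before the start sites of 4 of these genes is shown because it holds the letters that p53 is known to bind. p53 binds as a tetramer to a pair of decamers, and the published decamer was searched on both strands in the 250 bases before each start site in RefSeq (GRCm38.p6). Capitals mark each match, including both decamers where they lie side by side with at most 1 mismatch, and every sequence reads 5′ to 3′ on the strand of its gene. The first lies at chr11:69580257-69580356 on the plus strand, the second at chr10:117710872-117710971 on the minus strand, the third at chr11:40755409-40755508 on the minus strand and the fourth at chr17:29090879-29090978 on the plus strand.
Trp53: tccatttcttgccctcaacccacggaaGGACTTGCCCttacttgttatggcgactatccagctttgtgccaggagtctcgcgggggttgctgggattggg
Mdm2: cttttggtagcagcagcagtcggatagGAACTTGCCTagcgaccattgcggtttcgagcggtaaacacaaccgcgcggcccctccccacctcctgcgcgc
Ccng1: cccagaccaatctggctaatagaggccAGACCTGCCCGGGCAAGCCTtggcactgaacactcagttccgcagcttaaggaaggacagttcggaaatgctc
Cdkn1a: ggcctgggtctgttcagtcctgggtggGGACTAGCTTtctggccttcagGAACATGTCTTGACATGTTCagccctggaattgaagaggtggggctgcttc

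A pair of decamers was found in 0.0761% of the 32851 windows in the table, and among these were Cdkn1a, 51 bases before its upstream start site, and Ccng1, 195 bases before its start. A single decamer was found in 7.13% of the windows. Trp53 held it 75 bases, Mdm2 186 bases and Gadd45a 40 bases before the start. In all, 9 of the 10 genes had 11 windows in the table. The other motifs searched were CCAAT, in 33.8% of all windows, GGGCGG, in 32.7%, and TATAAA, in 12.4%. CCAAT was found before Trp53, Mdm2, Ccng1, Cdkn1b and all of the Gadd45 genes, and TATAAA before Trp53, Gadd45b and Gadd45g. GGGCGG was found before Mdm2, Cdkn1a, Cdkn1b, Cdkn2c, Gadd45a and Gadd45b. A match describes only these letters and is not evidence of binding.

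The libraries held 16759364 to 21794435 counts. Expression is given as counts per 1000000 counts (CPM) after scaling the libraries by edgeR's TMM method, with factors of 0.949 to 1.05, and on this scale 3 counts stood for 0.132 to 0.187 CPM. A gene was called where edgeR's quasi-likelihood test gave an adjusted p (Benjamini-Hochberg, over the 17136 tested genes) under 0.05. By this rule 32.0% of all tested genes were called, 19.2% higher and 12.8% lower in BCAS mice, and any count below is read against these shares. A gene that reached the filter on low counts only with the libraries of the group where it was higher was selected in part for a difference. Lists are therefore also counted without the genes that the 4 libraries of either group alone would not have brought past the filter, a step chosen after the data were seen. It left 15140 of all tested genes, of which 32.5% were called, 18.4% higher and 14.1% lower. All 10 genes were among these. The p-values of edgeR's test set the difference between the groups against the spread between mice within a group, estimated with help from all tested genes.

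Of the 10 genes, Trp53, Mdm2 and Cdkn2c were higher in BCAS mice, none was lower and 7 were not called. Thus 30.0% were called, all of them higher, against 32.0% called and 19.2% higher of all tested genes. Their median log2 fold change was 0.38, against -0.006 over all tested genes, and each of the 10 estimates was above 0. In 7 of the 10 the highest value was in BCAS mouse 1, and in 7 the BCAS mouse nearest to the sham mean was mouse 2. The plot of the values by mouse shows that the SD of the BCAS mice was the larger for all of the genes but Cdkn1c and Gadd45g, although for Cdkn1b the SDs were close, at 3.88 CPM in sham and 4.11 CPM in BCAS mice.

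**Figure D1:**
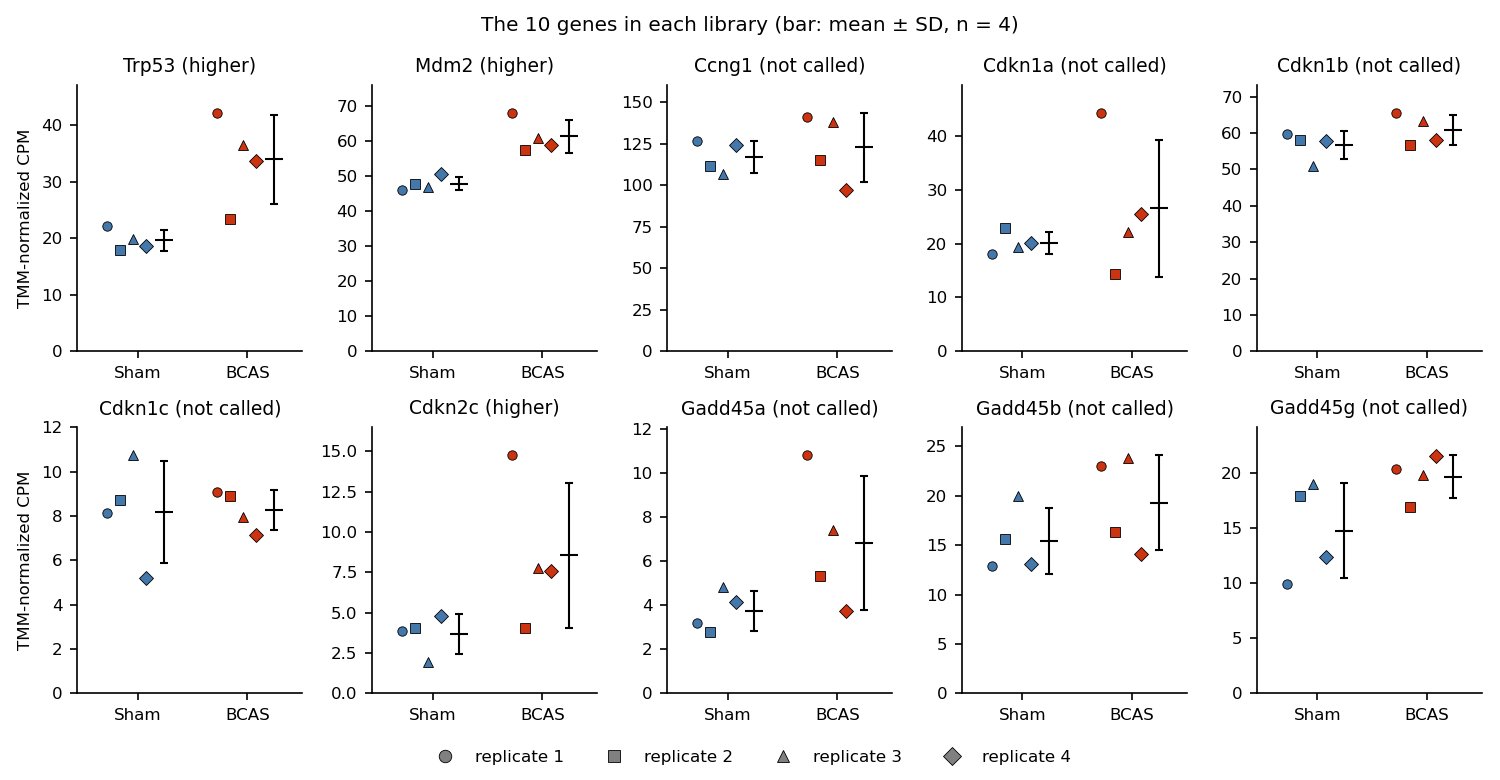
TMM-normalized CPM (vertical axis, from 0) of the 10 genes in the 4 sham mice (blue) and the 4 BCAS mice (red), with the replicate number as the symbol and the mean ± SD (n = 4) beside each group. The labels state no pairing by replicate number. The groups are apart for Trp53 and Mdm2, and BCAS mouse 1 is the highest of all 8 mice for 7 genes.

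Trp53 (ENSMUSG00000059552.13, chromosome 11, 69580359 to 69591873) had 22.1, 17.9, 19.9 and 18.6 CPM in sham mice 1 to 4 and 42.1, 23.4, 36.5 and 33.7 CPM in BCAS mice 1 to 4. Every BCAS mouse was above every sham mouse, with BCAS mouse 2 only just above sham mouse 1. The mean rose from 19.6 ± 1.85 to 33.9 ± 7.82 CPM (SD, n = 4), a log2 fold change of 0.79 (95% interval 0.41 to 1.17, adjusted p = 0.0114 from edgeR's test) or 1.73-fold. It remained called with each mouse left out in turn, with adjusted p up to 0.0411 from edgeR's test.

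Mdm2 (ENSMUSG00000020184.15, chromosome 10, 117688875 to 117710758), the ubiquitin ligase that removes p53, had 46.1, 47.6, 47.0 and 50.5 CPM in the sham mice and 67.9, 57.5, 60.7 and 58.9 CPM in the BCAS mice. The groups did not overlap here either, and the sham mice differed by little. The mean rose from 47.8 ± 1.87 to 61.3 ± 4.62 CPM, a log2 fold change of 0.36 (95% interval 0.18 to 0.53, adjusted p = 0.0118 from edgeR's test) or 1.28-fold. Its adjusted p with 1 mouse left out reached at most 0.0446 from edgeR's test. Over all tested genes, the groups did not overlap in 34.8%, with BCAS mice above sham mice in 18.5%.

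The p53 targets Ccng1 and Cdkn1a were not called. Ccng1 (ENSMUSG00000020326.7, chromosome 11, 40748552 to 40755311), the gene of cyclin G1, which brings a phosphatase to MDM2, had 126.5, 111.7, 106.8 and 124.6 CPM in the sham mice. Its values in the BCAS mice were 141.1, 115.6, 138.0 and 97.0 CPM, so that BCAS mice 1 and 3 lay above and BCAS mouse 4 below all sham mice. The log2 fold change of 0.07 had a 95% interval of -0.22 to 0.35 (adjusted p = 0.710 from edgeR's test).

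Cdkn1a (ENSMUSG00000023067.14, chromosome 17, 29090976 to 29100727), the classical p53 target that encodes p21, had 18.0, 23.0, 19.3 and 20.1 CPM in the sham mice and 44.2, 14.3, 22.1 and 25.5 CPM in the BCAS mice. BCAS mouse 1 was far above all other mice and BCAS mouse 2 was below all of them. The log2 fold change was 0.40, with a 95% interval of -0.26 to 1.06 (adjusted p = 0.307 from edgeR's test). Without BCAS mouse 1 it was 0.05 (adjusted p = 0.875), and without BCAS mouse 2 it was 0.62 and passed the threshold (adjusted p = 0.0442, both from edgeR's test). Another gene on the opposite strand covers 7.7% of the exon bases of Cdkn1a. Both genes with a pair of decamers shown above, Cdkn1a and Ccng1, were thus among those not called.

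The 25 genes with a pair of decamers before a start site included 7 tested genes, with a median log2 fold change of 0.09. Of these, Rps27l (log2 fold change 1.10, adjusted p = 0.0154 from edgeR's test) and Calhm2 (1.08, adjusted p = 0.0120) were higher, and Sptbn4 (-0.55, adjusted p = 0.0297) was lower. Calhm2 and Sptbn4 were named after their values were seen. For the 894 tested genes with a single decamer, 186 were higher and 136 lower, with a median of 0.02. Of all 17136 tested genes, 3291 (19.2%) were higher and 2199 (12.8%) lower. Neither the counts of the 894 genes nor those of the 7 genes were tested against these shares.

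The other CIP/KIP inhibitors were not called either. Cdkn1b (ENSMUSG00000003031.14, chromosome 6, 134920401 to 134925513), which encodes p27, the inhibitor that keeps resting cells out of the cycle, had 59.7, 58.0, 51.0 and 57.9 CPM in the sham mice and 65.5, 56.8, 63.2 and 58.1 CPM in the BCAS mice. The groups overlapped, and the log2 fold change of 0.10 had a 95% interval of -0.08 to 0.29 (adjusted p = 0.347 from edgeR's test). A change beyond 0.29 in either direction thus lay outside the interval of this gene. Cdkn1c (ENSMUSG00000037664.13, chromosome 7, 143458339 to 143461050), an imprinted gene that encodes p57, had 8.13, 8.74, 10.8 and 5.19 CPM in the sham mice and 9.10, 8.91, 7.94 and 7.14 CPM in the BCAS mice. All BCAS mice lay within the range of the sham mice. Its log2 fold change of 0.01 (95% interval -0.47 to 0.49, adjusted p = 0.968 from edgeR's test) had no stable sign, since it was -0.16 without sham mouse 4. A gene on the opposite strand covers 30.7% of its exon bases, and the counts do not separate the strands.

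Cdkn2c (ENSMUSG00000028551.14, chromosome 4, 109660876 to 109667189), the INK4 gene of p18, had the largest log2 fold change of the 10. It had 3.86, 4.06, 1.94 and 4.83 CPM in the sham mice and 14.8, 4.07, 7.78 and 7.57 CPM in the BCAS mice. BCAS mice 1, 3 and 4 were above all sham mice, while BCAS mouse 2 was within their range. The mean went from 3.67 ± 1.23 to 8.55 ± 4.48 CPM, and the log2 fold change was 1.22 (95% interval 0.32 to 2.13, adjusted p = 0.0452 from edgeR's test) or 2.33-fold. The call was close to the threshold. Leaving out any 1 of the sham mice, or mouse 1, 3 or 4 of the BCAS group, ended it (adjusted p of 0.0700 to 0.0968), and of these 8 fits it was kept only without BCAS mouse 2, at 0.00658 (edgeR's test). Limma-voom gave an adjusted p of 0.0755 and limma on log2(CPM + 1) gave 0.0546.

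None of the 3 GADD45 genes was called by edgeR's test (1 of them, Gadd45a, had an unadjusted p under 0.05), and each had at least 2 BCAS mice above all sham mice. Gadd45a (ENSMUSG00000036390.8, chromosome 6, 67035096 to 67037457), the family member best known as a p53 target, had 3.18, 2.81, 4.80 and 4.16 CPM in the sham mice and 10.8, 5.31, 7.40 and 3.76 CPM in the BCAS mice. BCAS mice 1, 2 and 3 were above the sham mice and BCAS mouse 4 was among them. The log2 fold change of 0.87 (95% interval 0.12 to 1.61) missed the threshold (adjusted p = 0.0705 from edgeR's test). It passed without BCAS mouse 2 (adjusted p = 0.0436) or BCAS mouse 4 (0.0424, both from edgeR's test) and with DESeq2 (0.0375). A gene on the opposite strand covers 19.1% of its exon bases.

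Gadd45b (ENSMUSG00000015312.9, chromosome 10, 80930073 to 80932204), which neurons are known to induce with activity, had 12.8, 15.7, 20.0 and 13.1 CPM in the sham mice and 23.0, 16.3, 23.8 and 14.1 CPM in the BCAS mice. BCAS mice 1 and 3 were above the sham mice, and the others were within their range. The log2 fold change was 0.32 (95% interval -0.15 to 0.80, adjusted p = 0.251 from edgeR's test). Gadd45g (ENSMUSG00000021453.2, chromosome 13, 51846678 to 51848468) had 9.94, 17.9, 19.0 and 12.4 CPM in the sham mice and 20.4, 17.0, 19.8 and 21.6 CPM in the BCAS mice. Its BCAS mice were close together and the spread was among the sham mice, of which mice 1 and 4 were low. The log2 fold change was 0.41 (95% interval -0.05 to 0.87, adjusted p = 0.142 from edgeR's test).

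Whether targets changed by the same factor as Trp53 was tested with the log2 ratio of 2 genes within a library, in which the scaling of a library cancels except for the small constant added to each value. For 7 ratios, the groups were compared by an exact two-sided permutation test over 70 arrangements of the mice, where the smallest possible p is 0.0286. The ratio of Ccng1 to Trp53 was 2.49, 2.61, 2.40 and 2.71 in sham mice 1 to 4, against 1.73, 2.28, 1.91 and 1.51 in the BCAS mice, so that every BCAS mouse was below every sham mouse. Its mean fell by 0.69, from 2.55 ± 0.14 to 1.86 ± 0.32 (exact permutation test, p = 0.0286, adjusted p = 0.200 over the 7 ratios). The ratio of Mdm2 to Trp53 was 1.27 ± 0.17 in sham and 0.87 ± 0.27 in BCAS mice, a difference of -0.39 (exact permutation test, p = 0.0857, adjusted p = 0.200), with BCAS mouse 2 among the sham mice. For Cdkn1a to Trp53 the difference was -0.47 (exact permutation test, p = 0.114, adjusted p = 0.200).

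The other ratios compared relatives within a family. Gadd45b to Gadd45a differed by -0.41 between the groups (exact permutation test, p = 0.0857, adjusted p = 0.200) and Gadd45g to Gadd45a by -0.28 (exact permutation test, p = 0.457, adjusted p = 0.640). Cdkn1a to Cdkn1b differed by 0.18 (exact permutation test, p = 0.629, adjusted p = 0.733), and this sign turned to -0.07 without BCAS mouse 1. Cdkn1c to Cdkn1b differed by -0.06 (exact permutation test, p = 0.857, adjusted p = 0.857). None of the 7 ratios passed the threshold after adjustment, but a single ratio at the smallest possible p has an adjusted p of 0.200 over 7 ratios, so the design could hardly give a pass.

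**Figure D2:**
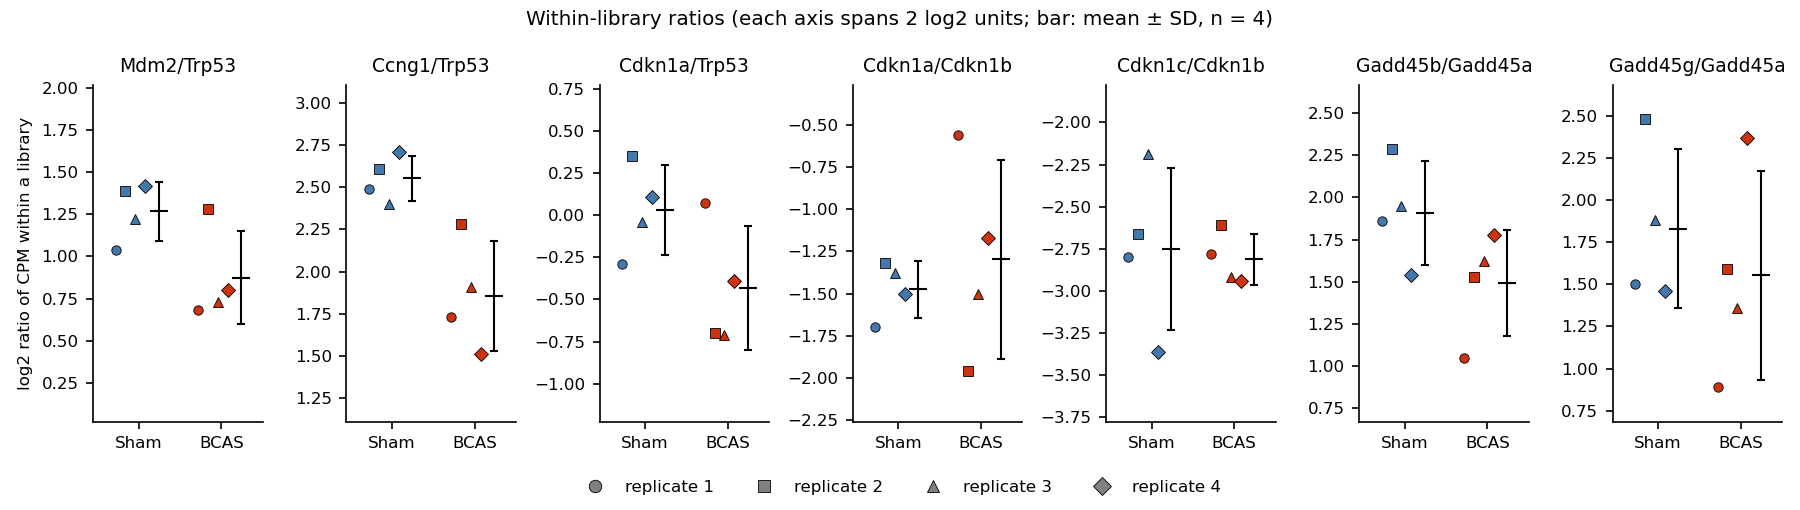
Log2 ratio of the CPM of 2 genes within each library (vertical axes, each spanning 2 log2 units but placed at different levels) for the sham mice (blue) and the BCAS mice (red), with the replicate number as the symbol and the mean ± SD (n = 4) beside each group. The groups do not overlap for Ccng1/Trp53, and BCAS mouse 2 is among the sham mice for Mdm2/Trp53.

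Levels of the 10 genes were set side by side per length, as CPM per kilobase of exon (RPKM). In sham mice Ccng1 was the most abundant at 33.4 ± 2.74 RPKM (SD, n = 4). Gadd45g at 12.6 ± 3.71, Cdkn1b at 12.4 ± 0.853, Gadd45b at 9.70 ± 2.10 and Mdm2 at 9.40 ± 0.368 RPKM formed a middle range in which each gene overlapped the next. Cdkn1a at 5.66 ± 0.589, Trp53 at 4.85 ± 0.457, Cdkn1c at 4.02 ± 1.13, Gadd45a at 2.12 ± 0.517 and Cdkn2c at 1.37 ± 0.456 RPKM followed, also with overlap between neighbors. Ccng1 was apart from Gadd45g, and Mdm2 from Cdkn1a. In BCAS mice the order was the same except that Trp53, at 8.39 ± 1.93 RPKM, was above Cdkn1a, at 7.46 ± 3.57 RPKM, and these still overlapped. Trp53 RNA was thus below the RNA of its inhibitor Mdm2 (12.1 ± 0.909 RPKM) in both groups.

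A wider list of 32 known p53 targets was described in the same way, and all 32 were tested, but Gdf15, Eda2r and Gtse1 reached the filter only with the BCAS libraries. Of the other 29 genes, 8 were higher and 1 was lower in BCAS mice, with a median log2 fold change of 0.28. Thus 31.0% were called and 27.6% were higher, against 32.5% and 18.4% of all genes counted in this way. Of the 29, 15 were called with the library size alone as the scaling, 15 with DESeq2, 7 with limma-voom and 4 to 16 with 1 mouse left out. Over all 32 genes, 11 were higher and 1 was lower (37.5% called, against 32.0% of all tested genes), and 18 were called with the library size alone (5278 of all tested genes) and with DESeq2 (6902). Gdf15, a stress-induced hormone, was counted 2, 3, 2 and 3 times in sham mice 1 to 4, against 129, 15, 53 and 26 times in the BCAS mice. All BCAS mice were above the sham mice, and the ratio of the summed counts, corrected for library size, was 19.1 (95% counting interval 10.2 to 40.4). This interval covers counting error only, not the spread between mice. No test is given for Gdf15, because it was tested only through its counts in BCAS mice. BCAS mouse 1 gave 129 of the 223 counts, and without it the ratio was 11.3 (5.88 to 24.3), a value computed after the data were seen. Tap1, the transporter that feeds peptides to MHC class I and a gene that interferon also induces, had 3.38 to 6.68 CPM in sham mice and 78.1, 14.6, 53.1 and 29.0 CPM in the BCAS mice (log2 fold change 3.25 ± 0.50 (SE), adjusted p = 0.00347 from edgeR's test). Eda2r, a death receptor of the TNF receptor family, had 0.286 to 0.724 CPM in sham mice and 4.53, 1.29, 4.38 and 1.36 CPM in the BCAS mice, again with no test for the same reason.

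The targets that rose were of several kinds. Fas, the death receptor, had a log2 fold change of 1.87, and Apaf1 and Pidd1, which assemble complexes that activate caspases, had 0.83 and 0.68. Epha2 had 1.81, Cd82 1.19, Rps27l 1.10 and Trp53inp1 1.07 (all with an adjusted p under 0.05 from edgeR's test). Gtse1, which restrains p53 in the G2 phase, had 0.455 to 0.785 CPM in sham mice and 1.03 to 4.26 CPM in BCAS mice. Rps27l is a close relative of another ribosomal protein gene, so reads could be shared between them. Zmat3, an RNA-binding protein, had 118 to 138 CPM in sham mice and 75.4, 106.4, 101.9 and 96.4 CPM in the BCAS mice, and its log2 fold change of -0.44 ± 0.11 (SE) was the only call below 0 (adjusted p = 0.0209 from edgeR's test). Zmat3 kept this call in 5 of 8 fits with 1 mouse left out, and lost it with the replicate number as a block. The cell death gene Bax (0.34, adjusted p = 0.0503), Bbc3, the gene of PUMA (0.28, adjusted p = 0.185), and Pmaip1, the gene of NOXA (0.77, adjusted p = 0.0946), did not pass edgeR's test. The phosphatase gene Ppm1d (-0.01) and the sestrins Sesn1 (0.04) and Sesn2 (0.07) were also among the 20 that were not called.

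**Figure D3:**
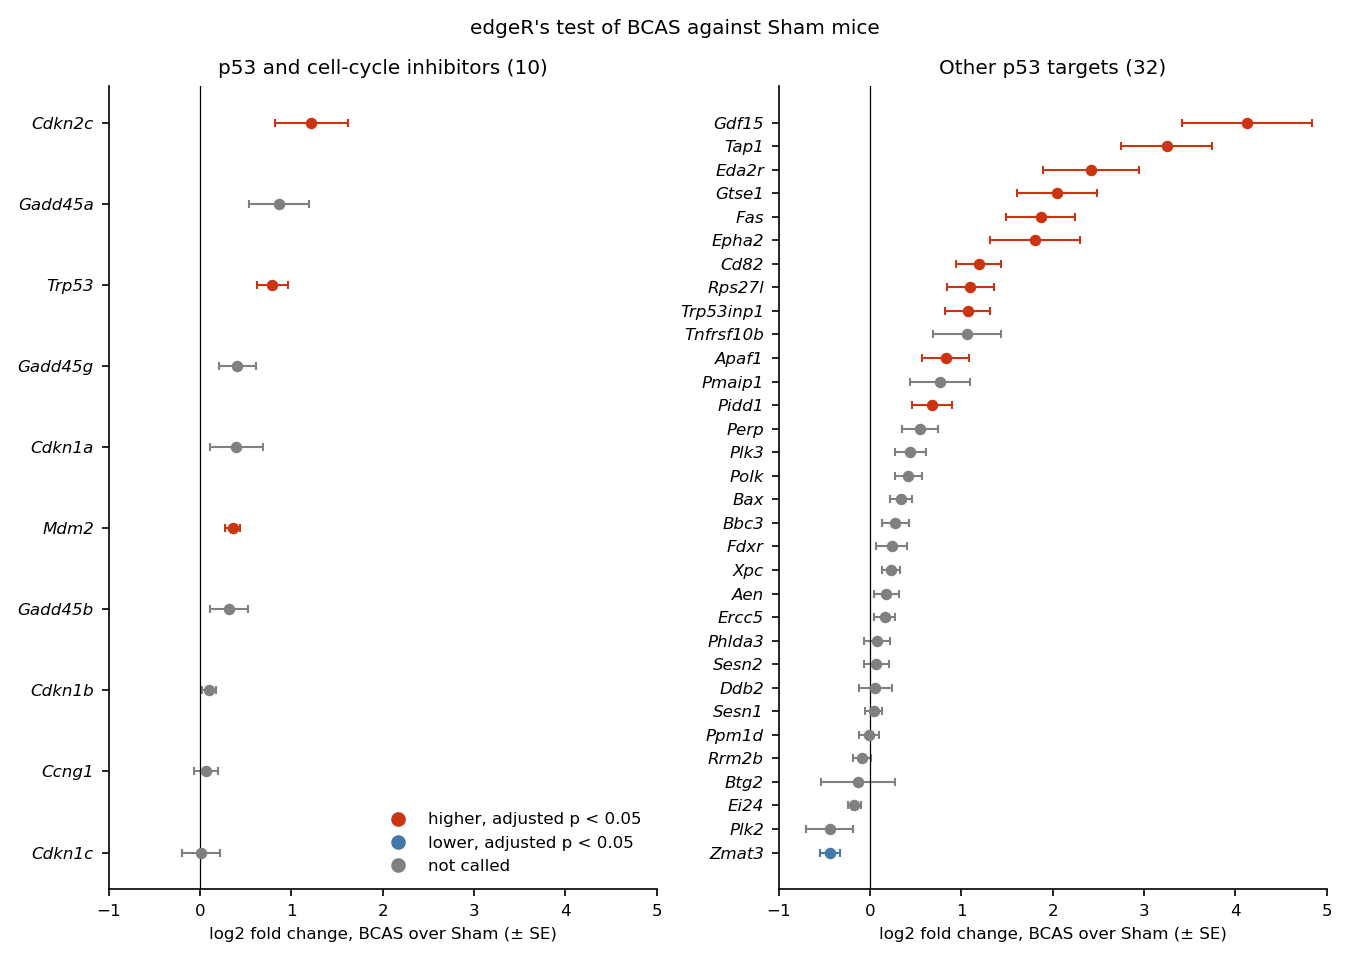
Log2 fold change of BCAS over sham mice (horizontal axis, point with ± SE) from edgeR's test for the 10 genes (left) and for 32 other p53 targets (right), red where higher, blue where lower and gray where not called. The list on the right runs from Gdf15 at the top to Zmat3, the only gene called lower. Gdf15, Eda2r and Gtse1 reached the filter on low counts only with the BCAS libraries.

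Among 17 regulators and relatives of p53, 16 were tested. Trp63 reached the filter only with the BCAS libraries and Trp73 only with the sham libraries. Of the other 14, 3 were higher and none was lower, with a median of 0.24. Thus 21.4% were called, all of them higher, against 32.5% called and 18.4% higher of all genes counted in this way. The higher genes were Chek2, a kinase that activates p53 after DNA breaks (2.33 ± 0.46 (SE), adjusted p = 0.00839), Trp53bp2, which binds p53 and steers it to cell death genes (0.45 ± 0.12 (SE), adjusted p = 0.0212), and Mdm4, the partner of MDM2 (0.36 ± 0.10 (SE), adjusted p = 0.0270, all from edgeR's test). With 1 mouse left out, Chek2 kept its call in 8 of 8 fits, Trp53bp2 in 3 and Mdm4 in 3, as against 8 for Mdm2, and Mdm4 also lost it with the replicate number as a block (adjusted p = 0.0556 from edgeR's test). Mdm4 had 82.2 to 92.4 CPM in sham mice and 101.1 to 134.6 CPM in BCAS mice, and its log2 fold change was as large as that of Mdm2. The kinase genes Atm (0.23) and Atr (0.25) were not called. The p53 relatives Trp63 (log2 fold change 0.64) and Trp73 (-0.16) were at about 1 CPM in both groups. No test is given for them, because each reached the filter only with the libraries of 1 group. The sign of Trp73 rested on single mice, since its log2 fold change was 0.23 without sham mouse 3 and 0.11 without BCAS mouse 3.

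The other CDK inhibitors did not move together. Cdkn2a, which encodes p16 and the MDM2 inhibitor p19ARF, was counted 0, 1, 0 and 0 times in sham mice 1 to 4, against 31, 4, 5 and 12 times in the BCAS mice. It had too few counts to be tested. The ratio of the summed counts, corrected for library size, was 44.5 (95% counting interval 7.65 to 1792). The ratio was 25.3 (4.06 to 1044) without BCAS mouse 1, which gave 31 of the 52 counts and was left out after the data were seen. These intervals cover counting error only, not the spread between mice. Cdkn2b, which encodes p15, had 0.398 to 1.39 CPM in sham and 1.19 to 2.64 CPM in BCAS mice, and no test is given for it because it reached the filter only with the BCAS libraries. Cdkn2d, which encodes p19INK4d and is expressed in mature neurons, was lower (-0.46 ± 0.15 (SE), adjusted p = 0.0419 from edgeR's test), with 34.3 to 42.1 CPM in sham and 21.6 to 34.8 CPM in BCAS mice. That call was lost without sham mouse 1 (0.0997), 2 (0.101) or 4 (0.0946) or BCAS mouse 4 (0.0925), and also with the library size alone as the scaling (0.0678) or with no filter on low counts (0.0507). Cdkn2c and Cdkn2d, the INK4 genes that passed, thus had opposite directions, and both calls were lost under some alternatives. Cdkn3 had a log2 fold change of -0.47, and no test is given for it because it reached the filter only with the sham libraries.

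The kinases that the inhibitors act on, and their cyclins, were also described. Of 14 cyclins and CDKs, Cdk1, Ccnb1 and Ccnb2 reached the filter only with the BCAS libraries. Of the other 11, 7 were higher and 1 was lower, with a median log2 fold change of 0.64. Thus 72.7% were called and 63.6% were higher, against 32.5% and 18.4% of all genes counted in this way. Cdk1, the kinase of mitosis, had 0.171 to 0.811 CPM in sham and 9.36, 1.85, 5.29 and 3.81 CPM in the BCAS mice. Its cyclin partner Ccnb1 was counted 10, 18, 3 and 11 times in sham mice 1 to 4 and 130, 23, 81 and 44 times in the BCAS mice, and no test is given for either. Ccna2 was higher in all 4 BCAS mice (2.04 ± 0.38 (SE), adjusted p = 0.00670 from edgeR's test). The D cyclins Ccnd1 (1.06), Ccnd2 (0.64) and Ccnd3 (0.81) and the kinases Cdk2 (1.73), Cdk4 (0.56) and Cdk6 (1.67) were higher too. Ccne1, the gene of cyclin E1, was lower in all 4 BCAS mice (-0.80 ± 0.14 (SE), adjusted p = 0.00598 from edgeR's test). Ccng2, the relative of Ccng1, was not called (-0.06, adjusted p = 0.608), and neither was the neuronal kinase gene Cdk5 (-0.38, adjusted p = 0.0697).

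Among 11 genes of the RB and E2F families, which decide on the entry into DNA synthesis, E2f7 and E2f8 reached the filter only with the BCAS libraries. Of the other 9, 4 were higher and 1 was lower, with a median of 0.33. Thus 55.6% were called and 44.4% were higher, against 32.5% and 18.4% of all genes counted in this way. E2f2 (2.44 ± 0.48 (SE), adjusted p = 0.00874) and Rbl1, the gene of p107 (1.69 ± 0.35 (SE), adjusted p = 0.00990), were higher, as were Rb1 (0.47) and Rbl2 (0.34). E2f8 had 0.227 to 0.744 CPM in sham and 0.618 to 4.31 CPM in BCAS mice, so the groups overlapped. E2f1 was lower (-0.69 ± 0.15 (SE), adjusted p = 0.0130 from edgeR's test). Of 12 proliferation genes, Aurkb, Birc5 and Bub1 reached the filter only with the BCAS libraries. Of the other 9, 8 were higher and none was lower (88.9% higher, against 18.4% of all genes counted in this way). Their median was 1.38, and 4 were higher with limma-voom. Top2a, which untangles DNA, had 1.59 to 2.31 CPM in sham mice and 29.5, 5.82, 17.5 and 11.9 CPM in the BCAS mice (3.02 ± 0.46 (SE), adjusted p = 0.00341), and Mki67 had a log2 fold change of 2.92 ± 0.63 (SE). Aurkb, a mitotic kinase, had 0 to 0.664 CPM in sham and 0.979 to 4.79 CPM in BCAS mice. The 1 gene not called was Mcm5 (0.29, adjusted p = 0.360 from edgeR's test).

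Of 8 kinases that GADD45 proteins act on or that lie below them, Map2k3 was higher (0.74 ± 0.21 (SE), adjusted p = 0.0297), the JNK genes Mapk8 (-0.62 ± 0.17 (SE), adjusted p = 0.0270) and Mapk9 (-0.61 ± 0.15 (SE), adjusted p = 0.0191) were lower, and Map3k4, the direct partner, was not called (adjusted p = 0.987, all from edgeR's test). Mapk8 and Mapk9 were lower in all 4 BCAS mice than in any sham mouse. Of the 8 kinases 37.5% were called, against 32.5% of all genes that either group brings past the filter. With 1 mouse left out, Map2k3 and Mapk8 kept their call in 2 of 8 fits and Mapk9 in 6, and none of the 8 kinases was called without sham mouse 1 or sham mouse 2. Of 10 regulators of p27, Cks1b, a cofactor in its destruction (1.10 ± 0.28 (SE)), and Foxo1, which activates its gene (0.57 ± 0.16 (SE)), were higher, and kept their call in 5 and 3 of these fits. Foxo3 (-0.40 ± 0.10 (SE)) and the ubiquitin ligase subunit Skp1a (-0.29 ± 0.10 (SE), adjusted p = 0.0469 from edgeR's test) were lower. The call of Skp1a was lost with the library size alone as the scaling (adjusted p = 0.104), with no filter on low counts (0.0961), with at least 10 counts in every library (0.0506) and in 7 of the 8 fits of edgeR that left out 1 mouse, and Foxo3 kept its call in 5. The median was 0.02 over 9 genes, without Cks2, which reached the filter only with the BCAS libraries. Of these 9 regulators of p27 44.4% were called, against 32.5% of all genes counted in this way. Of 10 immediate-early and stress genes, Atf3 had 0.181 to 1.26 CPM in sham and 38.1, 4.89, 22.4 and 14.9 CPM in the BCAS mice, and it reached the filter only with the BCAS libraries. Of the other 9, none was higher and Npas4, which neuronal activity induces, was lower (-1.58 ± 0.47 (SE), adjusted p = 0.0336 from edgeR's test), a call kept in 3 of the 8 fits that left out 1 mouse. The median of these 9 genes was -0.75, or -0.11 without sham mouse 3, which had the highest levels of Fos, Arc, Egr1 and Junb of all 8 mice. Without that mouse 1 of the 9 was called higher and none lower. With 8 mice 11.1% of the 9 were called, against 32.5% of all genes counted in this way.

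**Figure D4:**
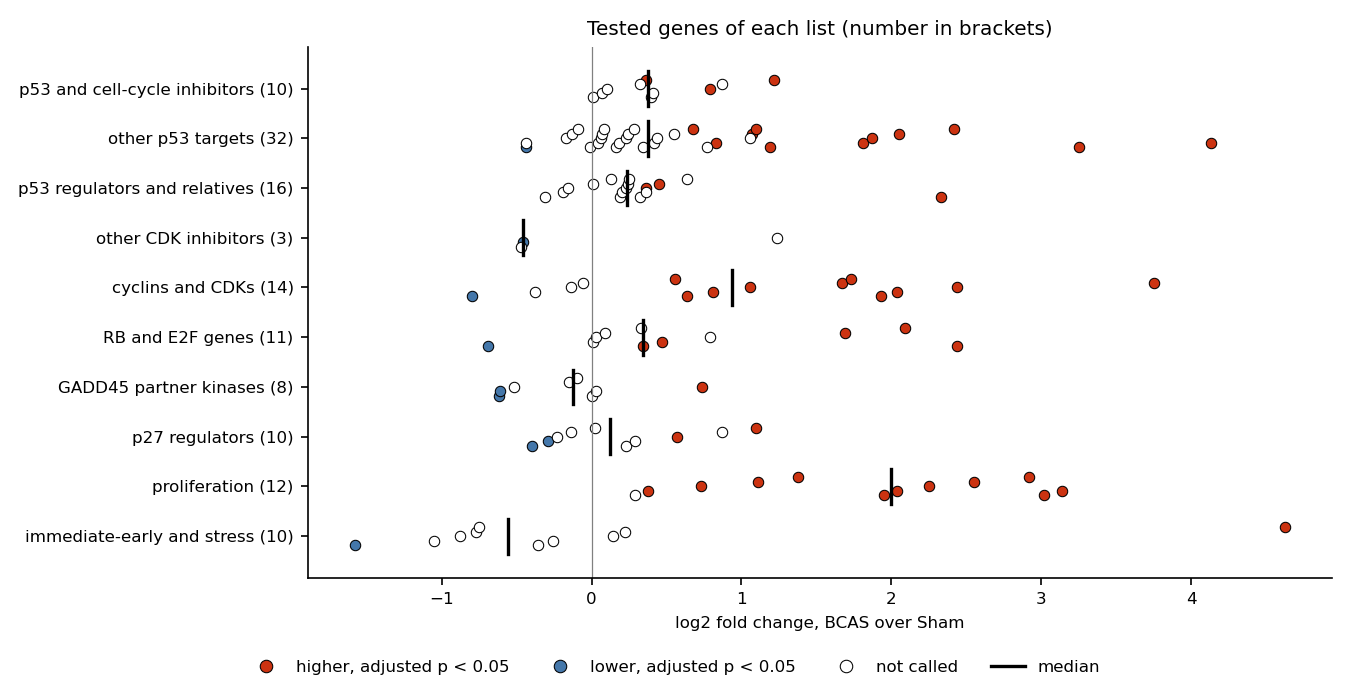
Log2 fold change of BCAS over sham mice (horizontal axis) of each tested gene in 10 lists, with the number of tested genes in brackets, red where higher, blue where lower and open where not called, and a bar at the median. All tested genes are drawn, with those that reached the filter on low counts only with the libraries of 1 group. Over all tested genes of a list the medians are 0.38 for the 10 genes and for the other p53 targets, 0.94 for cyclins and CDKs and 1.99 for proliferation genes.

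The RNA levels of cell type markers also differed between the groups. The summed level of 8 microglia markers was 313 to 383 CPM in sham mice and 4712, 1289, 2351 and 2540 CPM in BCAS mice 1 to 4, and all 8 markers were higher. For 8 markers of neurons the sum was 9648 to 11230 CPM in sham mice and 3850, 8260, 6390 and 5814 CPM in the BCAS mice. Of these 8 markers 7 were lower, 3 with the library size alone as the scaling, and 1 where sham mouse 1, sham mouse 4 or BCAS mouse 4 was left out. BCAS mouse 1, the highest of all 8 mice for 7 of the 10 genes, was thus also highest for microglia and lowest for neuron markers. BCAS mouse 2 was the BCAS mouse nearest to the sham mice in both. In whole tissue, fewer cells of a type and less RNA per cell cannot be told apart.

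Markers of other cell types differed as well. Of 8 astrocyte markers 6 were higher, with sums of 5289 to 6151 CPM in sham and 6984 to 10020 CPM in BCAS mice. Markers of infiltrating leukocytes summed to 0.966 to 1.93 CPM in sham mice, where 6 of 8 were at 0 in at least 1 mouse, and to 4.79 to 94.9 CPM in BCAS mice. Only 3 of these 8 passed the filter on low counts, through the BCAS libraries, so no count of calls is given. Of 8 markers of pericytes and fibroblasts 6 were higher. Of 6 markers of oligodendrocyte precursors 4 were higher, with sums of 336 to 391 CPM in sham and 418 to 635 CPM in BCAS mice. Only 1 of the 6 was called where sham mouse 1, 2 or 4 was left out, and 2 with the replicate number as a block. None of 8 markers of oligodendrocytes was called, but 3 were higher without BCAS mouse 2 and 1 was lower without sham mouse 3. With DESeq2 1 of these 8 was higher. Of 6 endothelial markers 2 were higher, with overlapping sums of 259 to 336 CPM and 312 to 451 CPM, and none was called once sham mouse 2, sham mouse 4 or BCAS mouse 3 was left out. Markers of cortical excitatory neurons were present in all libraries, at 2024 to 2240 CPM in sham and 677 to 1755 CPM in BCAS mice. Markers of the choroid plexus summed to 775 CPM in sham mouse 3, against 16.9 to 73.9 CPM in the other mice, and markers of the striatum to 625 CPM in BCAS mouse 4, against 223 to 390 CPM. The part of these differences in the results for the 10 genes was not tested.

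For each gene, the genes with the most similar profile were sought among 12438 tested genes whose mean count was 100 or more, by the root-mean-square difference in log2 CPM over the 8 mice after subtracting the sham mean. For Trp53 they were Cdk5rap2, at 0.071, and Ddx21, at 0.074, with log2 fold changes of 0.82 and 0.73. For Mdm2 they were Prkcsh, at 0.049, and Traf7, at 0.050. Cdkn1b had close neighbors in Ppp2r3a, at 0.026, and Ykt6, at 0.028. By contrast, the profile of Gadd45a, with its low value in BCAS mouse 4, had none nearer than Rab8b, at 0.255, and that of Cdkn1a, which BCAS mouse 2 took below all sham mice, none nearer than Klhdc7a, at 0.166. Cdkn2c was nearest to Acad12, at 0.112, and Tfcp2l1, at 0.120, which had log2 fold changes of 1.26 and 1.31. For Cdkn1c the list included Nfil3, at 0.139, and Ddb2, itself a p53 target, at 0.143. Ccng1 was nearest to Zbed4 and Ccz1, Gadd45b to Bambi and Cdk12, and Gadd45g to Rcan3 and Lhfpl3, at 0.070 to 0.171.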

How the data were processed

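The right cerebral cortex of 4 sham and 4 BCAS mice was profiled by RNA-seq 3 weeks after surgery, and the groups follow the treatment given in the labels. After trimming of the read pairs, the authors aligned to mm10 with HISAT2, sorted with Samtools 1.9, counted per gene with featureCounts and deposited raw counts. The tables' header gives featureCounts 2.0.1 with GENCODE vM20, while the methods state release 1.6.3 with RefSeq genes. The recorded call set neither a strand nor an option for pairs that fall on several genes. Symbols were paired with 54723 of the 54752 gene IDs.

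From the deposited counts, genes were filtered with filterByExpr (minimum count 10, minimum total count 15), which kept 17136, scaled by TMM over these genes and tested with edgeR 4.0.16 in R 4.3.3 (quasi-likelihood F-test, no covariates, Benjamini-Hochberg adjustment). The standard error is the fold change divided by the root of its F-statistic. The 95% intervals use the degrees of freedom of the same test and cover the spread between mice. A ratio of summed counts has an exact counting interval, and floors and such intervals cover counting error only. Ratios of 2 genes used log2 of CPM plus 0.5 CPM. RPKM was computed from the CPM and the exon length. Procedures were tested on simulated data with known changes.

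The 10 genes, the lists and the tests were chosen with earlier results of these data known, so their directions are not independent evidence. Named genes are the 10, up to 3 per list and direction with the largest change among called genes, the relatives Cdkn2a, Cdkn2b, Cdkn2d, Mdm4, Trp63, Trp73 and Ccng2, the first markers of a list, and the 2 nearest profiles. Other genes named from a list were chosen after their values were seen. Alternatives were scaling by upper quartile, by library size alone or by DESeq2's size factors, other filters, DESeq2 1.42.0, limma-voom and limma 3.58.1 on log2(CPM + 1), the replicate number as a block, a fold change threshold, another pseudocount, and each mouse left out in turn.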

Additional observations from a re-analysis of the deposited data

Results flagged for a closer look

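A single mouse stood apart from the other 3 of its group in 3 of 86 groups examined, over 43 genes (the 10 genes and the other named genes). The rule was a gap to the nearest mouse above 0.829 of the range of the group, and chance alone gives about 1 in 20 groups. None of the 3 concerned the 10 genes. Cdkn2d was at 34.3 CPM in sham mouse 3, against 41.2 to 42.1 CPM in the other sham mice. Cdkn2a was at 0.0624 CPM in sham mouse 2, which is 1 count, against 0 in the other sham mice. Trp73 was at 0.378 CPM in BCAS mouse 3, against 1.14 to 1.23 CPM in the other BCAS mice.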

How the results depend on the processing

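Of the 10 genes, 3 were called with each of the other scalings and filters, 4 with DESeq2 and 2 with limma-voom and with limma on log2(CPM + 1). Trp53 and Mdm2 were called under all 17 alternatives. An absolute log2 fold change above 1 as a second threshold left 1 of the 10 genes, Cdkn2c, and 2097 of all tested genes. With 1 mouse left out, 2 to 5 of the 10 genes, 7 to 19 of the other 32 p53 targets and 2549 to 8166 of all tested genes were called. The counts of 5, 19 and 8166 were those without BCAS mouse 2, and the count of 7 was that without sham mouse 1. All tested genes gave 5490 calls with 8 mice, 2549 without sham mouse 1, 2723 without sham mouse 2, 2731 without sham mouse 4, 2974 without BCAS mouse 3 and 3198 without BCAS mouse 4, all of which also have 1 mouse fewer in a group. Leaving out 1 mouse was examined gene by gene for the 10 genes and the genes named by rule, not for the other called genes of the lists. Among the genes named by rule and given a call above, calls were lost for Zmat3, Trp53bp2, Mdm4, Cdkn2d, Map2k3, Mapk8, Mapk9, Cks1b, Foxo1, Foxo3, Skp1a and Npas4. Their adjusted p reached 0.0582 (Mapk9) to 0.121 (Skp1a) in edgeR's test. Ccnb1, Aurkb and E2f8, for which no call is given, also rose above the threshold in some of these fits. Skp1a kept its call in 1 of these 8 fits. After the data were seen, the lists were also counted with 1 mouse left out. Without the genes that reached the filter only with the libraries of 1 group, calls then numbered 4 to 16 of the 29 other p53 targets (9 with 8 mice), 1 to 7 of the regulators of p53 (3), 6 to 9 of the cyclins and CDKs (8), 3 to 6 of the RB and E2F genes (5), 0 to 4 of the GADD45 partner kinases (3), 0 to 5 of the p27 regulators (4), 5 to 8 of the proliferation genes (8), 1 to 8 of the neuron markers (7), 1 to 5 of the markers of oligodendrocyte precursors (4) and 0 to 3 of the endothelial markers (2). The highest of these counts came without BCAS mouse 2, and for the kinases also without BCAS mouse 1. Estimates changed sign for Cdkn1c (range -0.16 to 0.16 with 1 mouse left out), at -0.0044 with the upper quartile, -0.16 without sham mouse 4, -0.03 without BCAS mouse 1 and -0.01 without BCAS mouse 2, for Trp73 (range -0.33 to 0.23), at 0.23 without sham mouse 3 and 0.11 without BCAS mouse 3, and for Ccng2, at 0.03 with the library size alone, which moved the median of all tested genes by 0.089. The ratio of Cdkn1c to Cdkn1b ranged from -0.26 to 0.13 and that of Cdkn1a to Cdkn1b from -0.07 to 0.40 with 1 mouse left out. The cause of these changes was not tested.

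The labels state no pairing by replicate number, and the main test used none. The deviations of same-numbered mice from their group means had correlations of -0.103 to 0.00126 over genes. For mice with different numbers these were -0.112 to 0.125. Such correlations cannot exclude that same-numbered mice were handled together. With the number as a replicate block, 2 of the 10 genes, 10 of the other p53 targets and 3546 of all tested genes were called. Trp53 had an adjusted p of 0.0169, Mdm2 of 0.0456, Cdkn2c of 0.0719 and Cdkn2d of 0.0795 in that fit of edgeR. Foxo1, Map2k3, Mdm4, Skp1a and Zmat3 also lost their call there, at 0.0556 (Mdm4) to 0.0966 (Skp1a). With pairs, a sign-flip test of a ratio cannot give a p under 0.125, so none of the 7 ratios could pass. Of 170 estimates for the 10 genes under all alternatives, 152 kept their direction and their side of the threshold.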
